A study of Mus musculus with 15 samples.

Results

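The set of 10 genes described here encodes proteins that build and bind the neuronal microtubule, followed across the CA3 field of the newborn mouse hippocampus: the tubulins Tuba1a, Tubb2a, Tubb2b and Tubb3, the microtubule-associated proteins (MAPs) Map1b, Map2 and Mapt (tau), and the stathmins Stmn1, Stmn2 and Stmn4. Members were chosen by symbol, and every probe carrying one of these symbols in its definition line or in the annotation of the array was kept. This gave 24 probes for 10 genes, of 25697 probes for 16593 genes in all, and 9 of the 24 were named by the annotation alone. Of the 24 probes, 22 passed the filter on dim signals, and the other two, Mapt ILMN_3034121 and Tubb2b ILMN_1229800, were not detected on any of 15 arrays.

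Laser-microdissected CA3 tissue was compared between wild-type (WT) mice and mutant mice labelled Dcx KO, which lack doublecortin, all at postnatal day 0. In the mutant the CA3 cell layer was dissected as an inner and an outer layer from the same 5 animals, and in WT as 1 layer from 5 other animals. The 15 arrays therefore stand for 10 animals. Dissected material was pooled before RNA isolation, and neither the strain nor the way the deletion was made is given in the sources used here.

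Microtubules are polymers of alpha- and beta-tubulin pairs, and neurons make particular isotypes of each, of which Tuba1a, Tubb2b and Tubb3 serve axon growth and neuronal migration. MAPs bind along the polymer: Map1b is the main MAP of growing axons, Map2 marks dendrites and tau is enriched in axons. Stathmins bind free tubulin and favour disassembly, and doublecortin, the protein missing in the mutant, is itself a MAP of migrating neurons.

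Values are log2 signals after background correction and quantile normalization, so a difference of 1 is a doubling. Each array detected between 10718 and 12072 probes, and 12077 probes entered the tests. The deleted gene checked the labels: its brighter probe, Dcx ILMN_1228206, averaged 10.49 ± 0.12 (SD, n = 5) in the inner layer, 10.61 ± 0.08 in the outer layer and 11.96 ± 0.12 in WT, a 2.66-fold lower signal in the mutant animals (limma, adjusted p = 3.49e-05). Where this probe lies relative to the deletion is not given. Of 18 general neuronal markers on the array 15 were detected, and of 11 CA3-field genes 10 were detected, the exception being Cdh24. The arrays of KO animals 1 to 4 carry an added shift in the authors' score table and those of KO animal 5 and WT do not, and the first principal component, 40.2% of the variance, separated the same 8 arrays from the other 7. The labels name no batch. Transcripts of muscle, a tissue outside the brain, were high on 3 inner arrays (1, 2, 5) and on WT 1 to 3: over 9 muscle genes the mean log2 signal ran from 4.91 to 9.35 in the inner layer, from 4.88 to 5.63 in the outer layer and from 5.10 to 11.1 in WT. In bulk tissue, fewer cells of a type and less RNA per cell cannot be told apart.

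**Figure D1:**
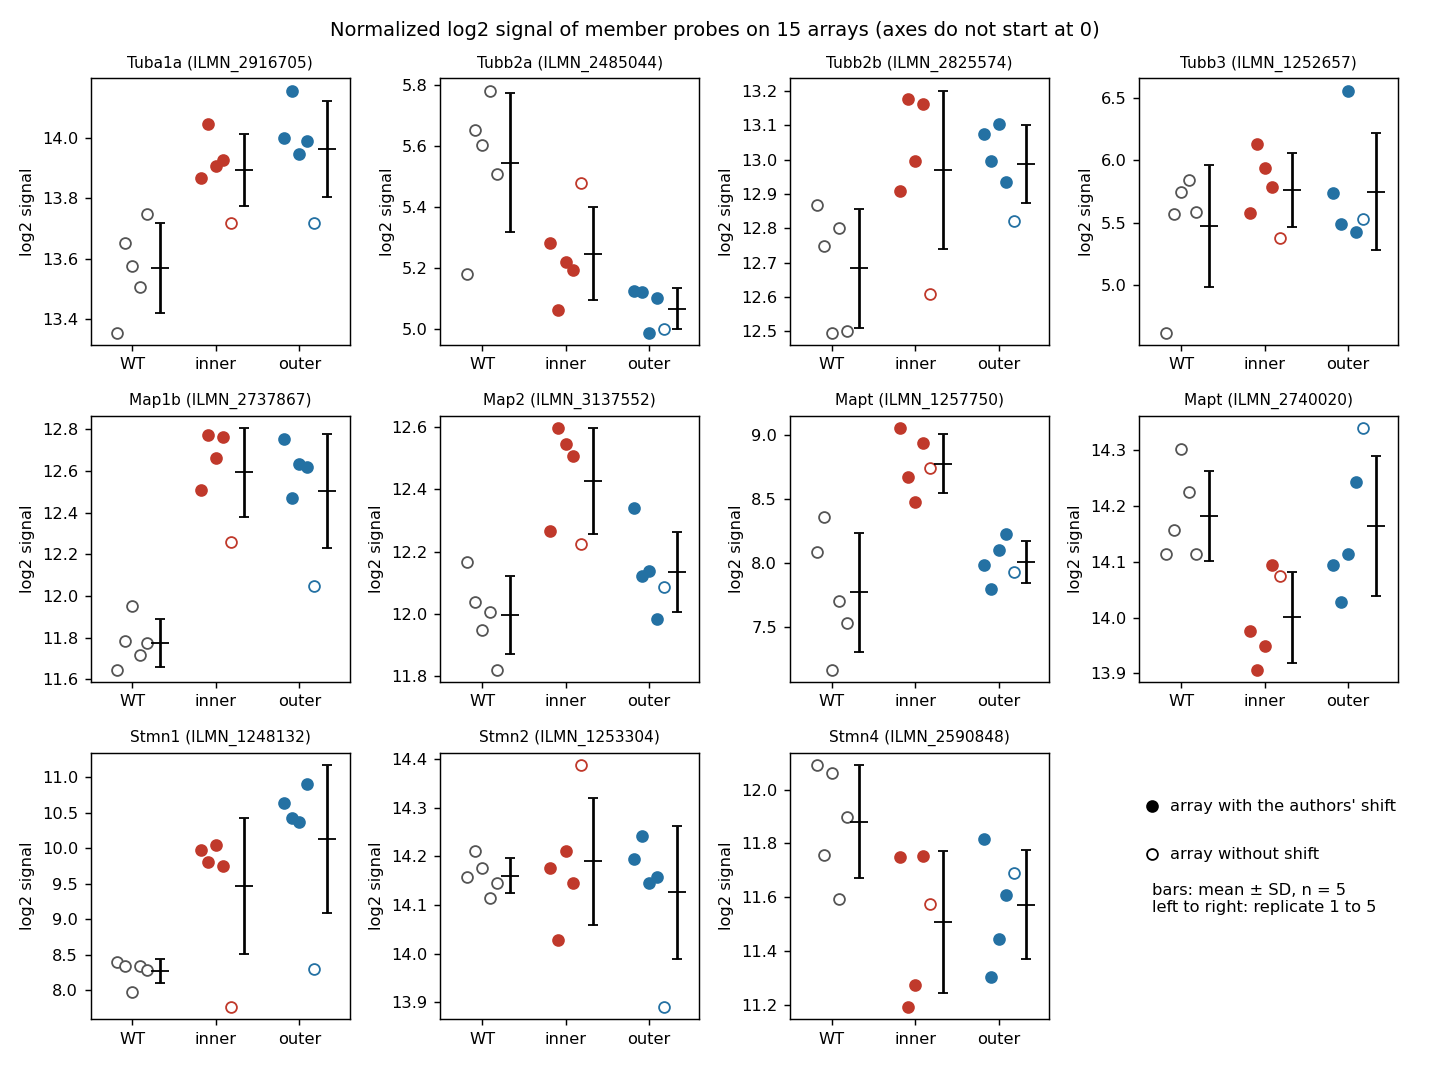
Normalized log2 signal of 11 member probes on each array of WT, inner and outer CA3, with the group mean ± SD (n = 5) beside the points; filled points are arrays that carry the authors' shift and open points those that do not. Map1b and Stmn1 lie above WT on all filled arrays, and the open Stmn1 points of the mutant lie at 7.77 and 8.30, close to WT.

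The first question was whether the 2 mutant layers differ in their microtubule genes. Most did not pass the test: of 22 member probes tested, the outer layer had 1 called higher and 1 called lower. A tau probe was 1.71-fold lower in the outer layer, and Stmn1, the stathmin of proliferating and young cells, was 1.58-fold higher there. Over all probes 19.8% were called, 9.84% as higher and 9.92% as lower, so 2 of 22 is below the background in this setting. Other processing moved this. With quantile normalization alone 6 of 22 members and 2958 of 12077 probes were called, and with the authors' scores 5 and 2063. The median difference of the members was 0.00, against 0.04 for all probes.

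Tau, encoded by Mapt on chromosome 11 (GRCm38.p6, chr11:104229409-104332090), was measured by 3 detected probes. ILMN_1257750, whose definition line names transcript variant 2, gave 9.06, 8.68, 8.47, 8.94 and 8.74 in inner layers 1 to 5. The outer layers of the same animals gave 7.98, 7.80, 8.10, 8.22 and 7.93. Every outer value lay below every inner value, and WT, at 8.09, 8.36, 7.16, 7.71 and 7.53, covered the outer range. Within animals the outer layer was lower by 1.08, 0.88, 0.37, 0.72 and 0.82 on the log2 scale, a mean difference of -0.77 ± 0.11 (SE; limma with animal as a block, adjusted p = 0.00369). The brightest tau probe, ILMN_2740020, gave no call and leaned the other way, with a mean difference of 0.16 ± 0.07 and the outer value above the inner one in 5 of 5 animals (adjusted p = 0.134). The third, ILMN_3107817, which names transcript variant 1, differed by -0.04 ± 0.18 (adjusted p = 0.876). The tau probes therefore disagreed on direction, and which transcripts each one binds was not tested.

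Stmn1 (chr4:134468320-134473843) was measured by 1 probe, ILMN_1248132. Its signal was 9.98, 9.81, 10.04, 9.75 and 7.77 in inner layers 1 to 5. In the outer layers it was 10.64, 10.43, 10.37, 10.91 and 8.30. The outer layer was higher in each of 5 animals, by 0.66, 0.62, 0.33, 1.17 and 0.53, although the groups overlapped because both layers of animal 5 were low. The mean difference was 0.66 ± 0.12 (limma, adjusted p = 0.00974). The call rests on the animal block, since without it the adjusted p was 0.531.

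A further 3 probes had an adjusted p under 0.1 without passing the test. Map2 ILMN_3137552 differed by -0.29 ± 0.10 (limma, adjusted p = 0.0879). Tubb2b, the beta-tubulin whose mutation in humans causes cortical malformation, differed by 0.25 ± 0.09 at ILMN_1221835 (adjusted p = 0.0838) and by 0.29 ± 0.10 at ILMN_2598715 (adjusted p = 0.0852). Its 3 other detected probes differed by between -0.09 and 0.02. Under quantile normalization with no background correction, 6 of the 22 probes were called, among them these 3 and tau ILMN_2740020. Over all probes 2958 of 12077 were called in that setting. Map1b differed by -0.09 ± 0.09 at its brightest probe, ILMN_2737867, and by 0.54 ± 0.21 at ILMN_2750248 (adjusted p = 0.11), and Tubb2a by -0.18 ± 0.09 (adjusted p = 0.204). Tuba1a, Stmn2, Stmn4 and Tubb3 differed by at most 0.07 in either direction, each with an SE between 0.07 and 0.17. The lowest adjusted p among these 5 probes was 0.503, for Tuba1a.

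**Figure D2:**
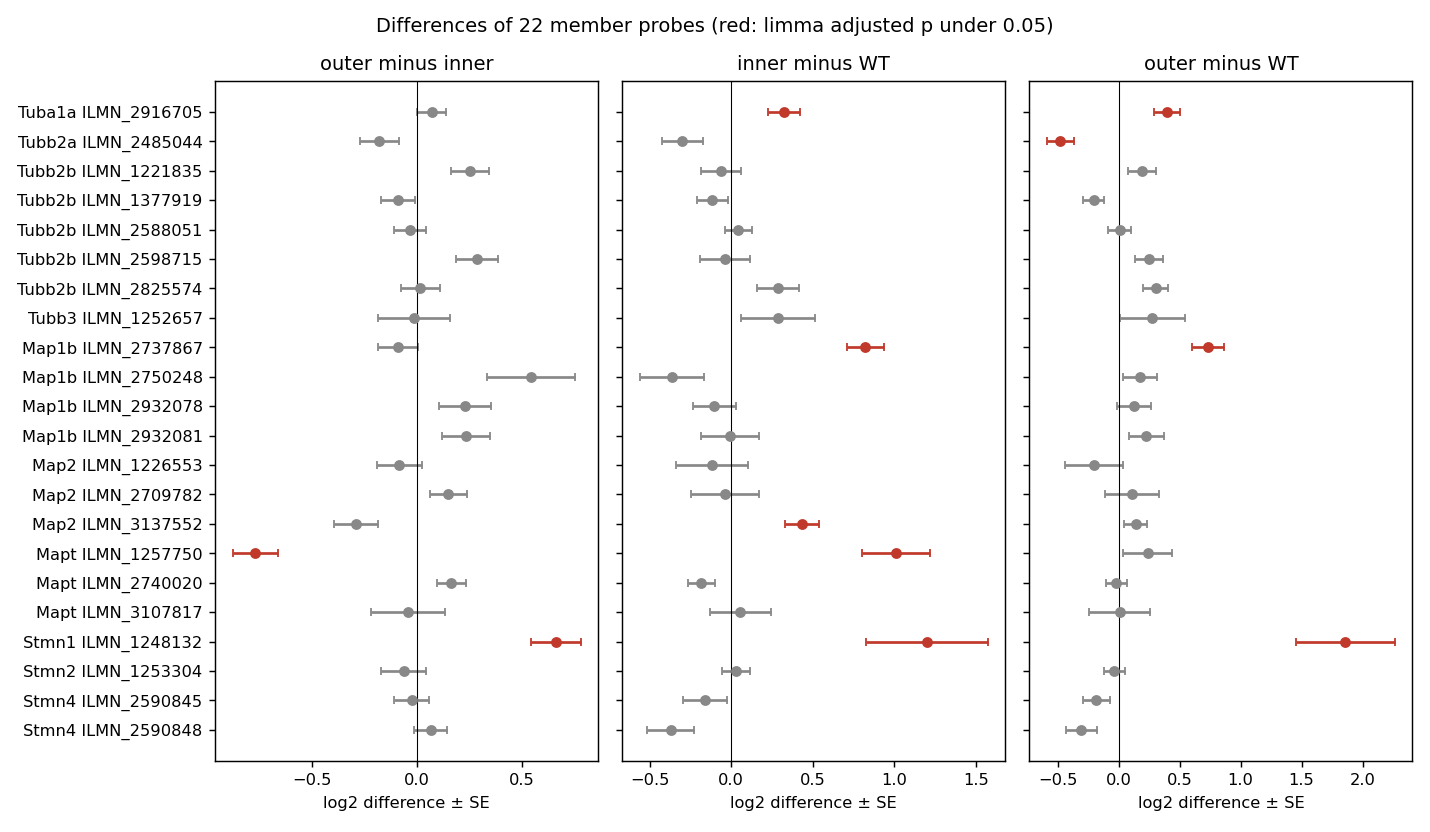
Log2 difference ± SE of each of the 22 tested member probes for outer minus inner, inner minus WT and outer minus WT, with probes past a limma adjusted p of 0.05 in red; the panels have different horizontal scales. Mapt ILMN_1257750 and Stmn1 are the called probes of the layer comparison. Stmn1, Map1b ILMN_2737867 and Tuba1a are to the right of 0 in both comparisons with WT, while the other Map1b probes are to the left of 0 for inner minus WT.

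Cell-type markers moved with the layers, counted with 1 probe per gene. Over all 8442 genes so counted, 9.54% were called higher and 11.4% lower in the outer layer. There 6 of 8 detected newborn-neuron genes were called higher and 1 lower, and 6 of 15 general neuronal genes were called lower and 0 higher. Genes of mature pyramidal neurons had 2 of 11 higher and 5 lower, and GABAergic genes 1 of 8 higher and 5 lower. Radial glia had 7 of 9 genes lower, astrocytes 5 of 8, oligodendrocytes 4 of 6, microglia 3 of 5 and endothelial and mural cells 7 of 7, with 0 higher in each. The newborn-neuron list averaged between 8.72 and 8.97 on the outer arrays, above its range of 7.92 to 8.26 on the inner arrays. Their part in the tau and Stmn1 differences was not tested. In animals 3 and 4, whose arrays are low in muscle and bone transcripts, tau ILMN_1257750 differed by -0.54 (adjusted p = 0.095) and Stmn1 by 0.75 (adjusted p = 0.113), with 4 arrays in the fit. With arrays centred on their medians in place of background correction and quantile normalization, tau differed by -0.49 (adjusted p = 0.19) and Stmn1 by 0.76 (adjusted p = 0.0905).

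Both mutant layers were next set against the same 5 WT arrays, so the comparisons share their controls and are given side by side. In the inner layer 5 member probes of 22 were called higher and 0 lower, against 14.0% higher and 14.6% lower over all probes. The outer layer had 3 called higher and 1 called lower, against 9.30% and 6.20%. Map1b, Stmn1 and Tuba1a were called higher in each layer. Map2 and tau were called higher in the inner layer, and Tubb2a was called lower in the outer layer. The median difference of the members was -0.02 in the inner and 0.13 in the outer layer, and that of all probes was -0.06 in each.

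Cell-type markers were counted in these comparisons too, and they moved more in the inner layer than in the outer one. In the inner layer, where 13.7% of genes were called higher than WT and 15.7% lower, GABAergic genes had 6 of 8 higher and 1 lower, radial glia 6 of 9 and 1, astrocytes 5 of 8 and 1, endothelial and mural cells 4 of 7 and 0, and mature pyramidal neurons 6 of 11 and 1. General neuronal genes had 5 of 15 higher and 2 lower, and newborn-neuron genes 1 of 8 higher and 4 lower. Oligodendrocytes had 2 of 6 higher and microglia 1 of 5, with 0 lower in each. The radial glia list averaged between 8.27 and 8.60 on the inner arrays, above its WT range of 7.69 to 7.97. In the outer layer, where 8.33% of genes were called higher and 6.81% lower, GABAergic genes had 3 of 8 higher and general neuronal genes 2 of 15, with 0 lower in each, and mature pyramidal genes had 1 of 11 higher and 2 lower. Astrocytes had 2 of 8 higher and 1 lower, and oligodendrocytes 1 of 6 and 1. Radial glia had 1 of 9 higher, newborn-neuron genes 1 of 8, microglia 0 of 5 and endothelial and mural cells 0 of 7, with 0 lower in each. The part of these cell types in the members' differences was not tested.

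Map1b (chr13:99421464-99516602) was called higher in both layers. Its probe ILMN_2737867 gave 11.65, 11.78, 11.95, 11.71 and 11.77 in WT 1 to 5. The inner layers gave 12.51, 12.77, 12.66, 12.77 and 12.26, and the outer layers 12.75, 12.47, 12.63, 12.62 and 12.05. Every mutant array lay above every WT array, and both layers of animal 5 lay nearest to WT. The inner layer was 1.77-fold higher, a log2 difference of 0.82 ± 0.11 (limma, adjusted p = 0.00185), and the outer layer 1.66-fold, 0.73 ± 0.13 (adjusted p = 0.0193). Of 22 member probes 4 in the inner and 2 in the outer layer had no overlap with WT, against 15.4% and 8.51% of all probes. The 3 dimmer Map1b probes gave no call and differed from WT by between 0.12 and 0.23 in the outer layer, and ILMN_2750248, the one with the greatest inner difference, differed by -0.36 ± 0.20 (adjusted p = 0.179).

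Stmn1 had the largest difference of any member. WT gave 8.41, 8.34, 7.97, 8.34 and 8.29 against the layer values above. The 8 mutant arrays of animals 1 to 4 lay between 9.75 and 10.91, above all WT arrays, while the inner layer of animal 5 lay below them and its outer layer within their range. The inner layer was higher by 1.20 ± 0.37 (2.30-fold, limma adjusted p = 0.0352) and the outer layer by 1.86 ± 0.41 (3.63-fold, adjusted p = 0.0246). Without animal 5 the differences were 1.62 (adjusted p = 1.02e-05) and 2.32 (adjusted p = 2.21e-06). All mutant arrays then carry the authors' shift and no WT array does, so these fits cannot tell genotype from array set.

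Tuba1a (chr15:98949847-98953501), the main alpha-tubulin of young neurons, gave 13.36, 13.65, 13.58, 13.51 and 13.75 in WT at ILMN_2916705. The inner layers gave 13.87, 14.05, 13.91, 13.93 and 13.72, and the outer layers 14.00, 14.16, 13.95, 13.99 and 13.72. In each layer 4 arrays lay above all WT arrays and that of animal 5 lay within the WT range. The log2 difference was 0.32 ± 0.10 in the inner (adjusted p = 0.032) and 0.39 ± 0.11 in the outer layer (adjusted p = 0.0351). This probe ranked between 10 and 74 of 25697 on every array, and quantile normalization leaves the brightest probes little room to differ. Quantile normalization alone gave 0.32 and 0.39, while centring on the median gave 0.45 (adjusted p = 0.0428) and 0.50 (adjusted p = 0.055).

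Tubb2a (chr13:34074278-34078008), a neuronal beta-tubulin, lay close to background and was detected on 14 arrays. Probe ILMN_2485044 gave 5.18, 5.65, 5.60, 5.78 and 5.51 in WT and 5.28, 5.06, 5.22, 5.19 and 5.48 in the inner layers. The outer layers gave 5.12, 5.12, 4.99, 5.10 and 5.00. All outer values lay below all WT values, the lowest of which was WT 1. The outer difference was -0.48 ± 0.11 (limma, adjusted p = 0.0263) and the inner one -0.30 ± 0.12 (adjusted p = 0.0898). Without background correction, quantile-normalized values differed by -0.16 in the outer layer (adjusted p = 0.061).

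Promoter sequence is shown for a tubulin and a MAP called higher in both layers, Tuba1a and Map1b, and for the tubulin called lower, Tubb2a. Each stretch is the 250 bases upstream of the gene's start on the minus strand, from RefSeq (GRCm38.p6). Capitals mark CANNTG (the E-box) and GGGCGG (the GC box), searched on both strands.
Map1b, chr13:99516603-99516852: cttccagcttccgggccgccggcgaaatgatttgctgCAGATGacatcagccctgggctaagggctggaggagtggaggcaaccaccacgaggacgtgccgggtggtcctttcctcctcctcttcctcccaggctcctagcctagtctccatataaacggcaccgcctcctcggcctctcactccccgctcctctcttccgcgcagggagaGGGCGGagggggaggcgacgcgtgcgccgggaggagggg
Tuba1a, chr15:98953502-98953751: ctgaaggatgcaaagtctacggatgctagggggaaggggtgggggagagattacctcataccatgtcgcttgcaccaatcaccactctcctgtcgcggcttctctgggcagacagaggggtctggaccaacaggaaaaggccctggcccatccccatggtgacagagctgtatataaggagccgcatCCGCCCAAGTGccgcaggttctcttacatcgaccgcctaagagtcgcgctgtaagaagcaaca
Tubb2a, chr13:34078009-34078258: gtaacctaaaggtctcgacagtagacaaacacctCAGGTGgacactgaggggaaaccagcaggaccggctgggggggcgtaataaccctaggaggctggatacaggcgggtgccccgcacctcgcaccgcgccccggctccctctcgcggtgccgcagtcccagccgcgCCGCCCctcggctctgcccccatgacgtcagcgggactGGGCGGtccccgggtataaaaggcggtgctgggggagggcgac
Map1b and Tuba1a each hold 1 CANNTG and 1 GGGCGG, which share a base in Tuba1a, and Tubb2a holds 1 and 2. CANNTG is in 66.2% and GGGCGG in 32.7% of the 32851 upstream stretches of the same length. Map2, called higher in the inner layer, holds 0 CANNTG and 5 GGGCGG in its stretch, chr1:66175079-66175328 on the plus strand, which is not shown. That stretch runs past the RefSeq gene start at 66175202, so part of it lies within the gene. No binding was measured here.

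Map2 (chr1:66175202-66442583) was higher in the inner layer at ILMN_3137552. WT gave 12.17, 12.04, 11.95, 12.01 and 11.82, the inner layers 12.27, 12.60, 12.54, 12.50 and 12.22, and the outer layers 12.34, 12.12, 12.14, 11.99 and 12.09. All inner arrays lay above all WT arrays, whereas 1 outer array did. The log2 difference was 0.43 ± 0.10 in the inner (limma, adjusted p = 0.0142) and 0.14 ± 0.10 in the outer layer (adjusted p = 0.325). Its dimmer probes, ILMN_1226553 and ILMN_2709782, gave no call in any of the 4 comparisons.

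The tau probe ILMN_1257750 was higher than WT in the inner layer by 1.01 ± 0.21 (2.01-fold, limma adjusted p = 0.00804), with no overlap. The outer difference was 0.24 ± 0.20 (adjusted p = 0.418). The brightest tau probe, ILMN_2740020, gave 13.98, 13.91, 13.95, 14.09 and 14.08 in the inner layers and 14.11, 14.16, 14.30, 14.22 and 14.11 in WT. All inner values lay below all WT values, without passing the test (adjusted p = 0.107), and this probe ranked 2 to 29 of 25697 over the arrays.

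Which arrays enter the fit changed the outer result more than the inner one. Without outer array 2, 3 or 4, the comparison of the outer layer with WT called 29, 4 and 6 probes in all, and 0 members. Map1b then differed by 0.74, 0.70 and 0.70 (adjusted p = 0.0509, 0.0566 and 0.0603). Without WT 2 or 3 Map1b was the only member still called in the outer layer, among 238 and 300 probes in all. Without WT 4 the members called were Map1b and Stmn1, among 468 probes. On arrays low in muscle and bone transcripts (outer 2 to 5 against WT 4 and 5), 2 probes in all and 0 members were called. Map1b was there at 0.70 (limma, adjusted p = 0.252) and Stmn1 at 1.68 (adjusted p = 0.299). In the inner layer Map1b, Map2 and tau ILMN_1257750 passed whichever inner or WT array was left out, while Stmn1 lost its call without inner 1, 2, 3 or 4 or any WT array (adjusted p from 0.0524 to 0.0801), and Tuba1a without any of these except WT 5 (from 0.0503 to 0.0712).

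Averaged over both layers of each animal, 5 member probes were called higher and 1 lower in the mutant, against 12.1% and 10.1% of all probes. The called probes were Map1b at 0.78 ± 0.11 (limma, adjusted p = 0.0148), Stmn1 at 1.53 ± 0.39 (0.0242), Tuba1a at 0.36 ± 0.10 (0.0291), Map2 at 0.28 ± 0.08 (0.0358) and tau ILMN_1257750 at 0.62 ± 0.20 (0.0436), with Tubb2a at -0.39 ± 0.11 (0.0306). Only Map1b ILMN_2737867 had no overlap between animals, against 9.63% of all probes. Beside these, and against 11.3% of genes higher and 10.9% lower, radial glia had 5 of 9 genes called higher and 0 lower, GABAergic genes 5 of 8 and 1, general neuronal genes 4 of 15 and 0, and astrocytes 3 of 8 and 1, a part that was not tested. Without KO animal 3 or 4, 21 and 25 of 12077 probes were called, and 0 members. Map1b was then at 0.75 and 0.74 (limma, adjusted p = 0.0535 and 0.0503). Without KO animal 1 or 2, or WT 3, Map1b was the only member among 1475, 36 and 1149 probes called. Without WT 4 the members called were Map1b and Stmn1, among 1298 probes. With the animals low in muscle and bone transcripts alone, KO 3 and 4 against WT 4 and 5, Map1b differed by 0.93 (adjusted p = 0.00403) and Stmn1 by 1.95 (adjusted p = 0.00102). There 2193 of 12077 probes were called, 4 of them members. The mutant arrays of that fit carry the authors' shift and the WT arrays do not, so it cannot tell genotype from array set.

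The set of arrays with the authors' shift bears on every comparison with WT, since 4 of 5 mutant animals and 0 of 5 WT animals are in it. Within the arrays without shift only KO animal 5 stands against WT, and a fit there assumes that the lone animal varies like WT. Animal 5 differed from the WT mean by 0.38 for Map1b ILMN_2737867, where it lay above all WT arrays. It differed by 0.57 for tau ILMN_1257750, by 0.16 for Map2 ILMN_3137552 and by 0.15 for Tuba1a. Tubb2a differed by -0.31. The animal's values for tau ILMN_1257750, Map2 ILMN_3137552, Tuba1a and Tubb2a lay within the WT range. At uncalled probes of Map1b (ILMN_2750248, ILMN_2932081), Map2 (ILMN_1226553, ILMN_2709782) and Tubb2b (ILMN_2598715) it also lay above all WT arrays. How often 1 animal does so over all probes was not tested. Stmn1 differed by -0.24, against between 1.85 and 2.06 in animals 1 to 4, so its direction turned. For every member, genotype and array set cannot be told apart beyond this 1 animal.

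**Figure D3:**
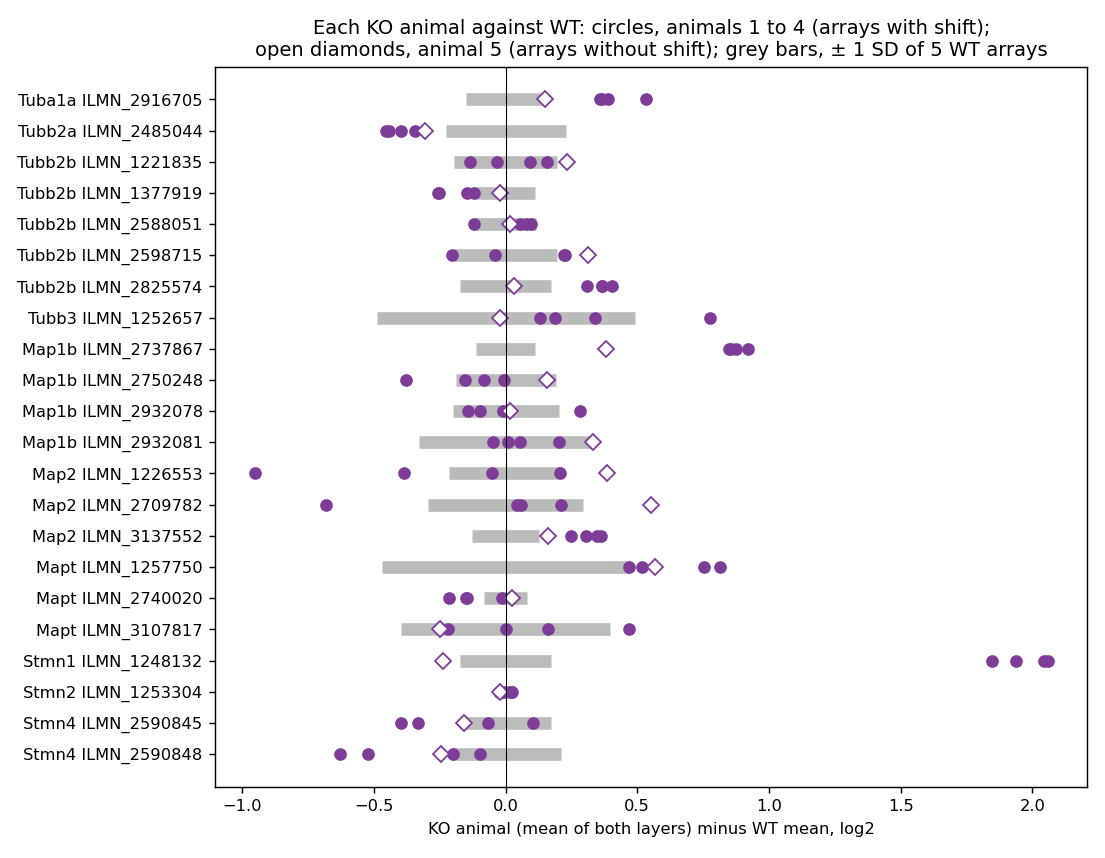
Log2 difference of each mutant animal (mean of its layers) from the WT mean for the 22 tested member probes; circles are animals 1 to 4, open diamonds animal 5, and grey bars ± 1 SD of the 5 WT arrays. The diamond lies on the same side of 0 as the circles for Map1b ILMN_2737867, tau ILMN_1257750, Map2 ILMN_3137552, Tuba1a and Tubb2a, and on the other side for Stmn1. Of these, only the Map1b diamond lies outside the range of the WT arrays. Diamonds of uncalled probes also lie above that range, for Map1b ILMN_2750248 and ILMN_2932081, Map2 ILMN_1226553 and ILMN_2709782, and Tubb2b ILMN_2598715.

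The remaining members gave no call against WT in the settings of the main tests. Stmn2, a neuron-specific stathmin of growth cones, averaged 14.16 ± 0.04 (SD, n = 5) in WT, 14.19 ± 0.13 in the inner and 14.13 ± 0.14 in the outer layer, and ranked 1 to 30 of 25697 on the arrays. Tubb3, the beta-tubulin used as a neuronal marker, averaged 5.47 ± 0.49, 5.76 ± 0.30 and 5.75 ± 0.47 in the same order and was detected on 14 arrays. Stmn4, a neural stathmin, differed from WT by between -0.37 and -0.16 at its probes in both layers, with adjusted p from 0.0728 to 0.396. Tubb2b (chr13:34127008-34130354) had 5 detected probes, whose differences from WT ran from -0.21 to 0.30. Its probe ILMN_2825574 lay above all WT arrays in 4 of 5 arrays of each layer, by 0.29 ± 0.13 in the inner (adjusted p = 0.111) and 0.30 ± 0.10 in the outer layer (adjusted p = 0.064). Its probes ILMN_1377919 and ILMN_2588051 ranked 2 to 29 of 25697, where normalization leaves little room. Tubb2a and Tubb2b are near-identical copies, and whether their probes tell them apart was not tested.

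Other genes of the microtubule were counted with 1 probe per gene, and the outer layer's background was again 9.54% higher and 11.4% lower. Of 12 other tubulins 2 were lower and 0 higher, Tubb6 by -1.05 ± 0.20 (limma, adjusted p = 0.012) and Tuba4a by -0.91 ± 0.09 (adjusted p = 0.00106). Of 19 genes listed as other structural MAPs 3 were higher and 2 lower. That list also holds the stathmin gene Stmn3 and the genes Arpp19 and Ensa, which are not MAPs. The higher ones were Mtus2 at 0.47, Map10 at 0.36 and Eml1, which is needed for the placing of cortical progenitors, at 0.36. The lower ones were Prc1, which bundles microtubules of the dividing cell, at -0.84 and Mtcl1 at -0.37. Of 12 plus-end proteins 2 were higher, Slain1 at 0.53 and the end-binding protein gene Mapre1 at 0.28. Of 13 severing and modifying enzymes 2 were higher, the tubulin acetyltransferase gene Atat1 at 0.33 and the katanin subunit gene Katna1 at 0.29. None of 16 tubulin-folding genes was called. Each of these 11 genes differed in the same direction in 5 of 5 animals, and the glial and vascular lists above were lower in the outer layer as Tubb6, Tuba4a and Prc1 were, a part that was not tested.

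Between mutant and WT animals, beside 11.3% of genes higher and 10.9% lower, the same lists were counted. Of the 12 other tubulins 3 were higher and 2 lower. Tubb4b was higher by 0.35 ± 0.09 (limma, adjusted p = 0.0229), and Tuba3b by 0.81 and Tuba3a by 0.80, near-identical copies whose probes may share signal. Tube1, of the centriole, was lower by 0.68 and Tubg1, the gamma-tubulin that nucleates microtubules, by 0.47 on the log2 scale. Of the plus-end proteins 4 of 12 were higher and 0 lower, of which the named 3 were Dst at 1.45, Slain1 at 1.35 and Mapre3 at 1.00. Of the folding genes 3 of 16 were higher, the prefoldin subunit gene Vbp1 at 1.51 and the chaperonin subunit genes Cct8 at 1.01 and Cct5 at 0.69. Of the 13 severing and modifying enzymes Hdac6, a tubulin deacetylase, was higher at 0.86 and the severing enzyme gene Spast at 0.38, while Katnal1 at -0.55, Ttll4 at -0.49 and Svbp at -0.43 were lower. Of the 19 genes of the MAP list 1 was called, Camsap2 at -0.41. Some of the named genes lay close to background. WT averaged 4.91 for Cct5 and 4.78 for Mapre3, and neither mutant layer averaged above 5.16 for Ttll4, Camsap2 or Tube1. With the array set as a term 2 probes of 12077 were called, both lower, and within the arrays without shift 0 were, with 431 at an unadjusted p under 0.05.

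**Figure D4:**
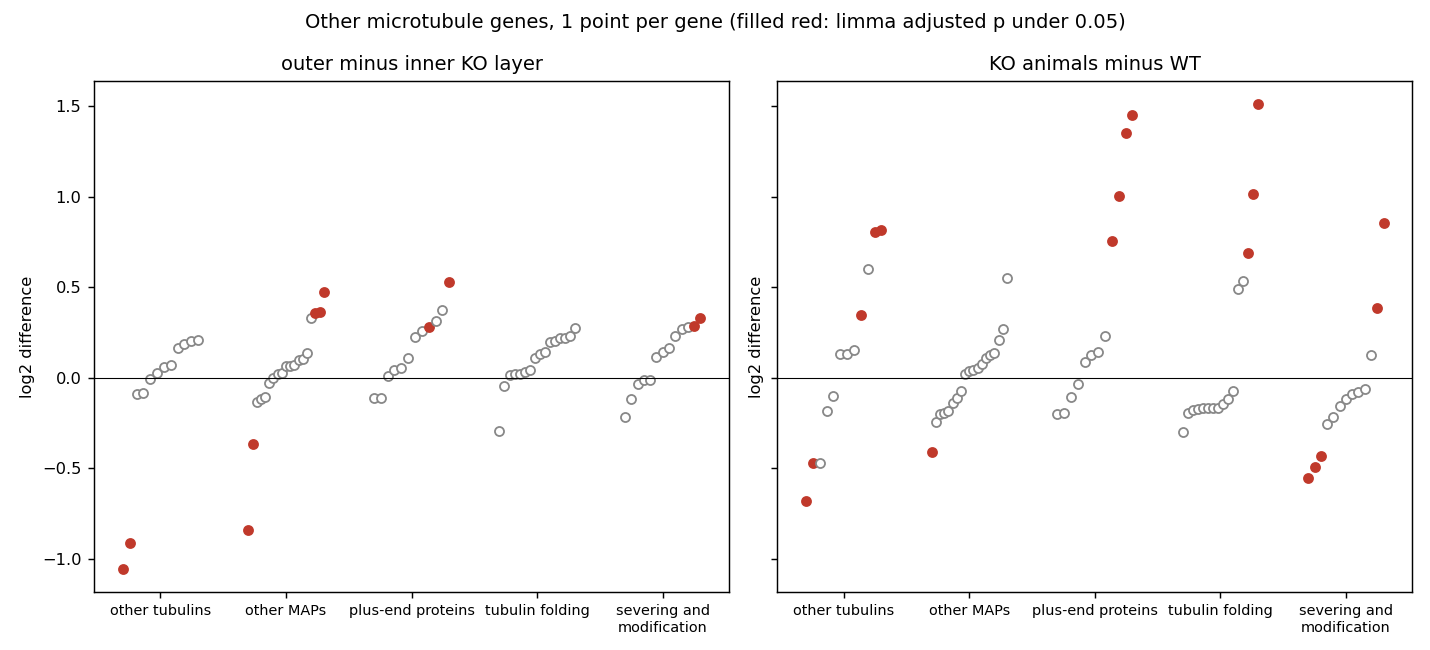
Log2 difference of each other microtubule gene (1 point per gene, ordered by size within its list) for the outer minus the inner mutant layer and for mutant animals minus WT; filled red points passed a limma adjusted p of 0.05. Tubb6 and Tuba4a are the lowest points at left, and Vbp1 and Dst the highest at right.

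The genes whose pattern was most like that of a member were sought over 15 arrays, by Pearson's r after the mean of the arrays with and of those without shift was subtracted, as a description of arrays that share animals, layers and normalization. For Map1b they were Tmem63b (r = 0.82), Gpd2 (0.79) and Cyp46a1 (0.76). For Stmn1 they were Zfand6 (0.91), Rbmx (0.90) and Emilin2 (0.89). For Map2 they were Pfkl (0.87), Dusp16 (0.86) and Cdca3 (0.85). For Tuba1a they were Taf9 (0.88), Dbt (0.85) and Tmod3 (0.78), and for the brightest tau probe Fam20c (0.91), Sf3b3 (0.90) and Kcnk10 (0.88). For the other five members the 3 nearest genes had r between 0.77 and 0.84. With no set mean subtracted, r was 0.20 for Map1b with Tmem63b and 0.16 for Stmn1 with Zfand6, while it was 0.96 for Tuba1a with Taf9. The search ran over the non-members among 8442 genes, and how high the best r of so many runs by chance was not tested.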

How the data were processed

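Per the labels' protocols, RNA was amplified from the dissected tissue, and the biotin-labelled product was read on Illumina bead arrays. The log2 signals were deposited by the authors in duplicate tables, equal at 7 decimals, with no background subtraction or normalization between arrays visible in the values. The authors nevertheless labelled these signals normalized, and the scores described next non-normalized. A deposited score table, also by the authors, holds each log2 signal minus the array median, divided by the array SD, plus a shift for each entry on 8 arrays. Limma was used, per the submitters' processing notes, in a role not given in the sources used here. Of 26821 entries 25697 carried a probe. Of these, 23978 had 1 gene symbol, 0 several and 1719 none, and 23962 matched RefSeq (GRCm38.p6). Of the entries without a probe 1114 served as negative controls and 10 bright ones, over 5 scaled median deviations above the median, were left out.

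Signals were corrected and normalized with neqc of limma 3.58.1 (R 4.3.3, offset 16). A detection p was computed against the negative controls, and probes under 0.01 on at least 5 arrays were kept, 12077 or 47.0%. The detection p-value is therefore not one of the authors' values. Each probe was tested with limma (lmFit and eBayes, two-sided, Benjamini-Hochberg over the kept probes, calls under 0.05). The layers were compared with animal as a block, each layer with WT in its own fit of 10 arrays, and mutant with WT on the mean of both layers per animal. The layers' replicate numbers were taken to name the animal. Deviations of same-numbered layers correlated at 0.55, 0.26, 0.38, 0.39 and 0.77 for animals 1 to 5. No inner layer correlated more with the outer layer of another animal. Inner 4 and WT 4, of different animals, also reached 0.55, so the size of such a correlation does not settle a pairing. For lists, the kept probe of highest mean stood for a gene (8442 genes). Every member probe, Dcx, up to 5 called genes per direction of each microtubule list between layers and up to 3 against WT, and the 3 genes most like a member were eligible to be named. Members and lists were chosen with earlier results of these data known. The fits were tested on simulated data with known changes. Array number, 5 per group, limits the precision.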

Additional observations from a re-analysis of the deposited data

Results flagged for a closer look

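In 7 of 66 groups of 5 arrays, 1 array stood apart from the other 4 by Dixon's ratio of gap to range, which chance does in about 1 of 20 groups. Stmn1 was low on inner array 5, at 7.77 against 9.75 for the nearest array, and on outer array 5, at 8.30 against 10.37. It was also low on WT 3, at 7.97 against 8.29. Stmn2 was low on outer array 5, at 13.89 against 14.15. Tubb2b ILMN_2588051 was low on outer array 4, at 13.98 against 14.22. Tubb3 was high on outer array 3, at 6.56 against 5.74, and low on WT 1, at 4.62 against 5.57, where its probe was not detected.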

How the results depend on the processing

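Counts below are of probes called, first over all probes and then over the 22 members. Between layers the main counts were 2386 and 2. They became 124 and 0 with median centring, 899 and 1 with no replicate block, and 397 and 0 with animals 3 and 4 alone. The counts were 2958 and 6 with quantile normalization and no background correction, and 2063 and 5 with the authors' scores. With an animal left out the counts ran from 1292 to 1743 and stayed at 2. For the inner layer against WT the main counts were 3448 and 5. They became 577 in all with median centring, 1293 and 2 with the scores, 10 and 0 with the array set as a term, 0 and 0 within the arrays without shift (1227 at an unadjusted p under 0.05) and 1937 in all on arrays low in muscle and bone transcripts. Left-out arrays gave 2257 to 4568 and 3 to 8. For the outer layer the main counts were 1872 and 4. They became 839 in all with median centring, 632 and 1 with the scores, 963 in all with no filter, 3 and 0 with the array set as a term, 0 and 0 within the arrays without shift (954 unadjusted), and 2 and 0 on arrays low in muscle and bone. Left-out arrays gave 4 to 3760 and 0 to 5. For mutant against WT animals the main counts were 2682 and 6. They became 1257 in all with median centring, 604 and 2 with the scores, 2 and 0 with the array set as a term and 0 and 0 within the arrays without shift (431 unadjusted). Left-out animals gave 21 to 4303 and 0 to 7. The cause of each change was not tested.

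WT and mutant numbers name different animals, so the numbers are no pairing. Their correlations ran from -0.37 to 0.55, a range that includes those of the same-numbered layers of mutant animals 2 to 4. With them as a replicate block, 3 members were called in the inner layer, 4 probes and 0 members in the outer layer, and 1 probe and 0 members between animals.

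Median centring also moved the split of calls. It gave 515 higher and 62 lower for the inner layer (main 1689 and 1759), 797 and 42 for the outer layer (1123 and 749) and 1192 and 65 for the animals (1466 and 1216). The scores gave 715 and 578, 497 and 135, and 436 and 168.

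Stmn1 turned direction with the array set as a term and within the arrays without shift, to -0.50 in the inner layer (limma, adjusted p = 0.418 and 0.433) and -0.24 over the animals. Tuba1a in the outer layer turned to -0.012 with the scores (adjusted p = 0.94). Among probes with no call in either setting, signs also turned in 26, 58, 32 and 42 of the values in the 4 comparisons, in the order above. Signal over background limits Tubb2a and Tubb3, each not detected on 1 array, and the 2 probes not detected at all. Among the other microtubule genes it also limits Cct5, Mapre3, Ttll4, Camsap2 and Tube1.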
